A study of Mus musculus with 3 samples.

Results

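The genes described here are 6 of the 33353 listed for each cell, chosen by their symbols: the GABA-A receptor subunits *Gabra3*, *Gabrb1*, *Gabrb2* and *Gabrg1* and both subunits of the GABA-B receptor, *Gabbr1* and *Gabbr2*. Their values were taken over all 2060 deposited cells, 354 from mouse 1, 1050 from mouse 2 and 656 from mouse 3. None of the 6 is an uptake gene, so the GABA transporters were taken from a list of 37 other genes of the pathway. The cells were sorted by tdTomato from the ENS of the small intestine and read by scRNA-seq, from 3 *Ednrb*-KO (*Ednrb*-/-) mice, a model of Hirschsprung disease, taken singly at postnatal day 14. The labels give the strain as C57BL/6, while the methods start from founder lines of mixed background. All 3 mice also carried Wnt1-Cre, which acts in the neural crest, and a reporter that makes GCaMP5 and tdTomato after Cre. Each library was 1 mouse, and the cells came from the longitudinal muscle and myenteric plexus layer of the whole small intestine, so submucosal neurons and regional differences were outside the sample. No wild-type mouse is part of these samples, and every comparison was between cells of the same 3 mice.

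GABA acts on cells through a pair of receptor families. GABA-A receptors are chloride channels built from several subunits, most often alpha, beta and gamma subunits together, while the GABA-B receptor is a pair of *Gabbr1* and *Gabbr2* proteins that signals through G proteins. In the *Gabbr1*-*Gabbr2* pair the first binds GABA, and the second couples to the G protein and brings the first to the cell surface. In the gut, GABA is made by a subset of myenteric neurons, and receptors of both families are known on enteric neurons.

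The depth of the cells differed between mice. The median cell held 3735 UMIs (unique molecular identifiers, which count captured RNA molecules) in mouse 1, 9600 in mouse 2 and 9579 in mouse 3, and the totals were 1526256, 10358118 and 6412495 UMIs. The targeted gene *Ednrb* was read in 42.7%, 68.9% and 58.8% of the cells of the 3 mice. Where its reads lie relative to the deleted stretch is not given in the sources used here, so this level did not check the genotype. All 8 neuronal markers were detected in every mouse, at a summed level of 43.1, 40.8 and 38.3 UMIs per 10000. Markers of other cells were present too, with glial markers at 15.3, 12.6 and 11.1 and smooth muscle markers at 77.0, 17.3 and 11.9 UMIs per 10000, and mouse 1 stood apart in the last. At least 8 of 10 smooth muscle markers were read in 77, 70 and 56 cells, and 40 of these 203 cells, 39 of them from mouse 1, had at most 2 of the 8 neuronal markers. Scrublet marked 10 doublets in all, 0.485% of the cells, and 2 barcodes occurred in more than 1 library.

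Most of the signal of the 6 genes was that of *Gabbr1*, with 2649 UMIs against 84 for *Gabbr2*. *Gabbr1* (ENSMUSG00000024462.17, GRCm38 chr17:37045966-37075067, plus strand) and *Gabbr2* (ENSMUSG00000039809.10, chr4:46662305-46991873, minus strand) are protein-coding genes. Bases before the start of each are shown because the receptor needs both genes and the data read them so unequally. RefSeq and GENCODE place the start of *Gabbr1* at the same base, but 159 of the 250 bases before the RefSeq start of *Gabbr2* lie inside the GENCODE gene, so only the 91 bases before both starts are printed for it. The sequences are from RefSeq on GRCm38.p6, 5′ to 3′ on the gene's own strand, and the capitals mark each CG.
*Gabbr1*, chr17:37045716-37045965, plus strand: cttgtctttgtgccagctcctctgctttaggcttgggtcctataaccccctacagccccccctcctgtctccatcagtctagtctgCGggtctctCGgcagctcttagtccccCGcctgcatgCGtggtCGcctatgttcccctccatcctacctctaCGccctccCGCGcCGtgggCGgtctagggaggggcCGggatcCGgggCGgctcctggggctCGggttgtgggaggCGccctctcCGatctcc
*Gabbr2*, chr4:46991874-46991964, minus strand: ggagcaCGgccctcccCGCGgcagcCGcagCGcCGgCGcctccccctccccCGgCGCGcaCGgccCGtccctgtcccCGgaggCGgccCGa
The printed stretches hold 16 and 15 CG. Over the whole 250 bases before the RefSeq start, *Gabbr1* has 16 CG, a number that 25.4% of the 32851 listed promoters of this length reach, and *Gabbr2* has 37 (chr4:46991715-46991964), a number that 2.20% reach, against a median of 6. Neither 250-base window holds CANNTG, the E-box (a palindrome, so searched on both strands at once), which 66.2% of promoters hold. These are descriptions of letters in one window, and no data on promoter activity or methylation were analysed here.

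*Gabbr1* was read in most cells of the deeper libraries. It was detected in 157 of 354 cells of mouse 1 (44.4%, 95% exact binomial interval 39.1 to 49.7), in 691 of 1050 cells of mouse 2 (65.8%, 62.9 to 68.7) and in 445 of 656 cells of mouse 3 (67.8%, 64.1 to 71.4). Mouse 1, with the shallowest cells, had the lowest share but the highest level. The levels were 1.67, 1.37 and 1.53 UMIs per 10000 (mean 1.52 ± 0.152 SD, n = 3 mice). With every cell thinned to 3000 UMIs, the share was 38.8%, 33.2% and 36.7%, and mouse 1 was the highest of the 3. At a minimum of 2 UMIs the mean share was 31.2%, and no cell held more than 10 UMIs. *Gabbr1* was also read in 8 of the 40 smooth muscle-marked cells with few neuronal markers (20%, 9.05 to 35.6). Within mouse 1, where the median depths were 3649 UMIs in these cells and 3735 in all cells, the shares were 17.9% and 44.4% and the levels 0.404 and 1.67 UMIs per 10000. All intervals of shares and levels cover counting error only.

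*Gabbr2* was scarce by comparison. It was detected in 11 cells of mouse 1 (3.11%), 32 of mouse 2 (3.05%) and 30 of mouse 3 (4.57%), with 11, 37 and 36 UMIs. The levels were 0.0721, 0.0357 and 0.0561 UMIs per 10000 (mean 0.0546 ± 0.0182 SD, n = 3 mice). The mice overlapped within their counting intervals, and 10 of the 73 *Gabbr2*-positive cells held 2 UMIs or more. None of the 40 smooth muscle-marked cells with few neuronal markers held it, so a share of up to 7.5% is allowed.

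The 4 GABA-A members were rarer still. *Gabra3* (ENSMUSG00000031343.13, chrX:72432681-72656848, minus strand), an alpha subunit, was read in 6, 7 and 8 cells, or 1.69%, 0.667% and 1.22%. Its level was 0.0524 UMIs per 10000 in mouse 1, 0.00676 in mouse 2 and 0.0172 in mouse 3. Mouse 1 was thus the highest, although its library had the fewest UMIs of all genes together. *Gabrb1* (ENSMUSG00000029212.11, chr5:71658113-72149037, plus strand), a beta subunit, was read in 4, 20 and 8 cells (1.13%, 1.90% and 1.22%). The other beta member, *Gabrb2* (ENSMUSG00000007653.12, chr11:42419757-42629028, plus strand), was read in 0 of 354 cells of mouse 1, 10 cells of mouse 2 and 2 cells of mouse 3. *Gabrg1* (ENSMUSG00000001260.10, chr5:70751047-70842617, minus strand), a gamma subunit, was read in 1, 0 and 2 cells with 1 UMI each. *Gabra3*, *Gabrb2* and *Gabrg1* had 0 UMIs in the 203 smooth muscle-marked cells, so up to 1.48% of them is allowed, and *Gabrb1* was read in 1 of them. At these counts the shares of *Gabra3* (1.02% of all cells), *Gabrb2* (0.583%) and *Gabrg1* (0.146%) could not be told from those in cells marked for smooth muscle.

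Among other subunits of the same classes, the gamma subunit *Gabrg3* was detected in 42, 223 and 144 cells (11.9%, 21.2% and 22%), against the 3 cells of *Gabrg1*. The alpha subunits shown beside *Gabra3*, which was read in 21 cells, were as rare or rarer, with *Gabra5* in 14 cells, *Gabra4* in 7 and *Gabra2* in 5. *Gabra6*, an alpha subunit known from cerebellar granule cells, had 0 UMIs, which allows up to 0.146% of cells. Such limits are on cells with a UMI, and a gene at a low level can be present in more cells without being read.

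**Figure D1:**
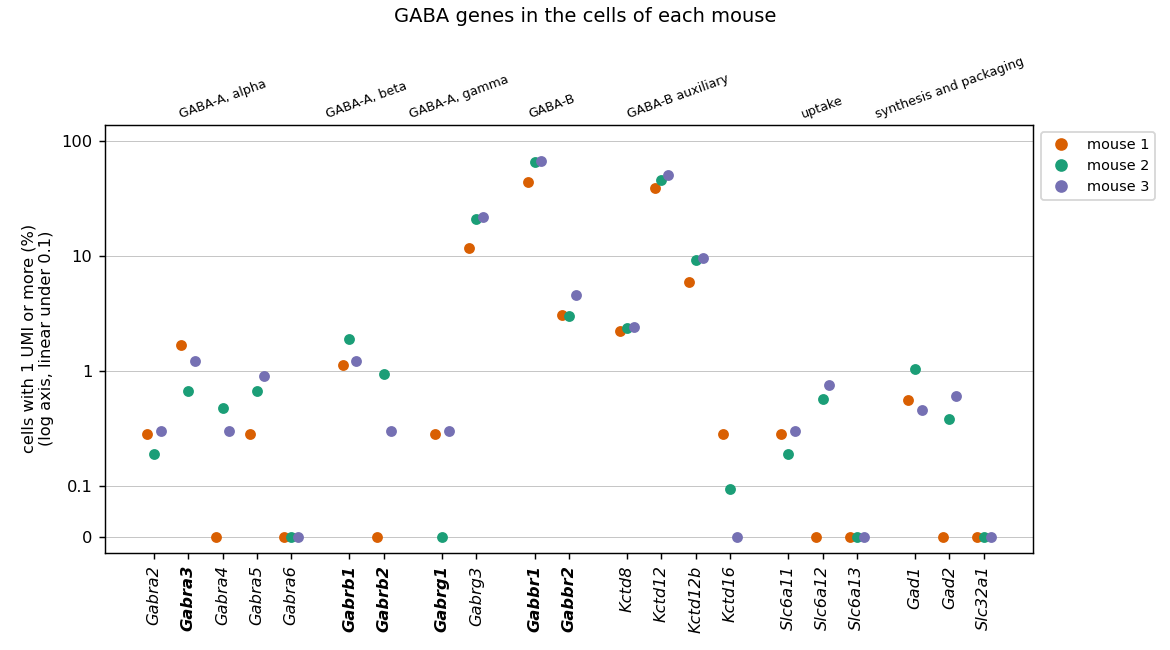
Share of the cells of each mouse with 1 UMI or more of the 6 genes (bold) and of other genes of the GABA pathway, on a log axis that is linear under 0.1%, 1 point per mouse. *Gabbr1* and *Kctd12* were read in 62.8% and 46.3% of all cells once the mice were pooled, while each alpha subunit plotted lay at 1.02% or less.

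The genes that act beside the receptors were read unevenly. Of the GABA-B auxiliary subunits, which shape the response of the receptor, *Kctd12* was read in 138, 482 and 334 cells (39.0%, 45.9% and 50.9%), *Kctd12b* in 183 cells in all, *Kctd8* in 49 and *Kctd16* in 2. The GIRK potassium channels that GABA-B receptors open were led by *Kcnj3* with 243 cells (11.8%), followed by *Kcnj5* with 129, *Kcnj6* with 88 and *Kcnj9* with 13. Of the GABA transporters described here, *Slc6a12* was read in 11 cells, *Slc6a11* in 5 and *Slc6a13* in 0. For synthesis and packaging, *Gad1* was read in 16 cells, *Gad2* in 8 and the vesicular transporter *Slc32a1* in 0 of 2060, which allows up to 0.146%. *Abat*, which breaks GABA down, was read in 335 cells (16.3%). Gephyrin (*Gphn*), the scaffold of GABA-A receptors, was read in 790 cells (38.3%), the chloride importer *Slc12a2* in 470 (22.8%) and the exporter *Slc12a5* in 42.

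A cell needs several subunits to build a receptor, so cells with more than 1 were counted. Both GABA-B subunits were read in 10, 24 and 23 cells, 57 in all. Chance pairing within each mouse, given the depth of each cell, gave 51.9 cells, a ratio of 1.10 with an exact Poisson interval of 0.831 to 1.42. *Gabbr1* was read in 78.1% of the *Gabbr2*-positive cells, while *Gabbr2* was read in 4.41% of the *Gabbr1*-positive cells. The ratio was 1.23 when depth was left out of the expected number, and 1.11 in cells thinned to 3000 UMIs. An excess of the pair was thus not detectable at this depth.

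Among the 4 GABA-A members, 67 cells held at least 1 and 1 cell held 2, a cell of mouse 3 with *Gabra3* and *Gabrg1*. For that pair 0.0499 cells were expected, and the interval of the ratio ran from 0.507 to 112. *Gabrg3*, a gamma subunit read in 409 cells, was not part of these counts. No cell held *Gabra3* with a beta member, and the expected numbers were 0.361 with *Gabrb1* and 0.111 with *Gabrb2*, so 0 was within counting error. *Gabbr1* was read in 24 of the 32 *Gabrb1*-positive cells against 22.8 expected (ratio 1.05, 0.674 to 1.56), and in 17 of the 21 *Gabra3*-positive cells against 14.2 expected (ratio 1.19, 0.696 to 1.91). The auxiliary subunit *Kctd12* was read with *Gabbr1* in 673 cells against 661 expected (ratio 1.02, 0.943 to 1.10) and with *Gabbr2* in 44 cells against 39.5 expected (ratio 1.11, 0.809 to 1.49). *Gabra3* and *Gabbr2* shared 1 cell in each mouse against 0.926 expected in all (ratio 3.24, 0.668 to 9.47). These intervals were not adjusted for the number of combinations counted.

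**Figure D2:**
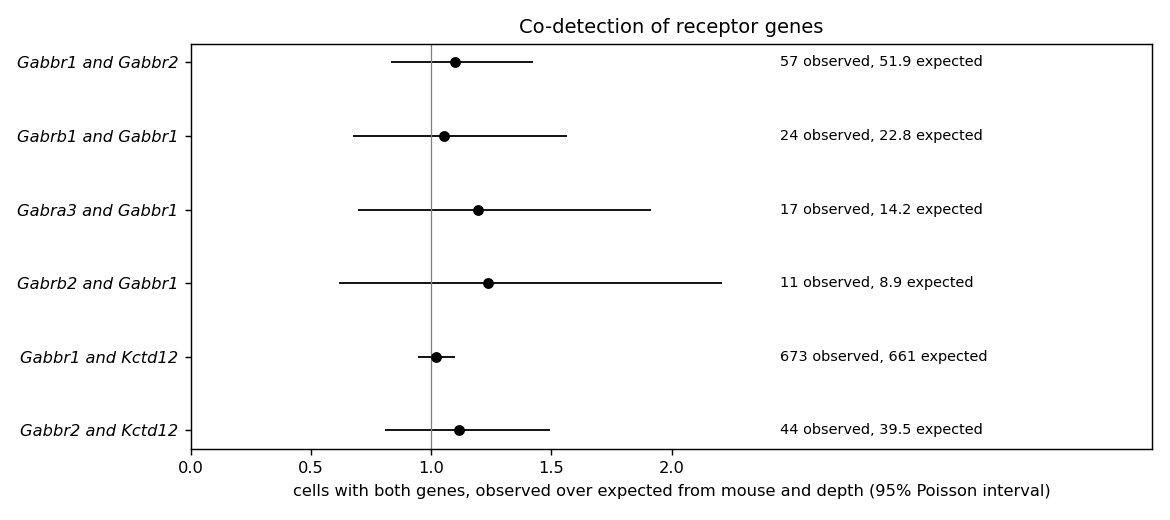
Number of cells with both named genes over the number expected from the mouse and the depth of each cell, with 95% exact Poisson intervals of the observed number. The interval of every pair plotted spans 1, from 0.831 to 1.42 for *Gabbr1* and *Gabbr2*.

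To ask which neurons held the receptors, cells were classed by marker UMIs and the UMIs of each class were summed per mouse. *Nos1* makes nitric oxide in inhibitory motor neurons and *Chat* makes acetylcholine. There were 130, 531 and 301 cells with *Nos1* only, 16, 148 and 113 with *Chat* only, 103 with both and 718 with neither. *Nmu*, a neuropeptide of presumed sensory neurons, was read in 31, 80 and 89 cells, and *Sox10*, a transcription factor of glia and progenitors, in 148, 572 and 368 cells. The classes cross: 97 of the 200 *Nmu*-positive cells were *Nos1*-positive and 95 were *Sox10*-positive.

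**Figure D3:**
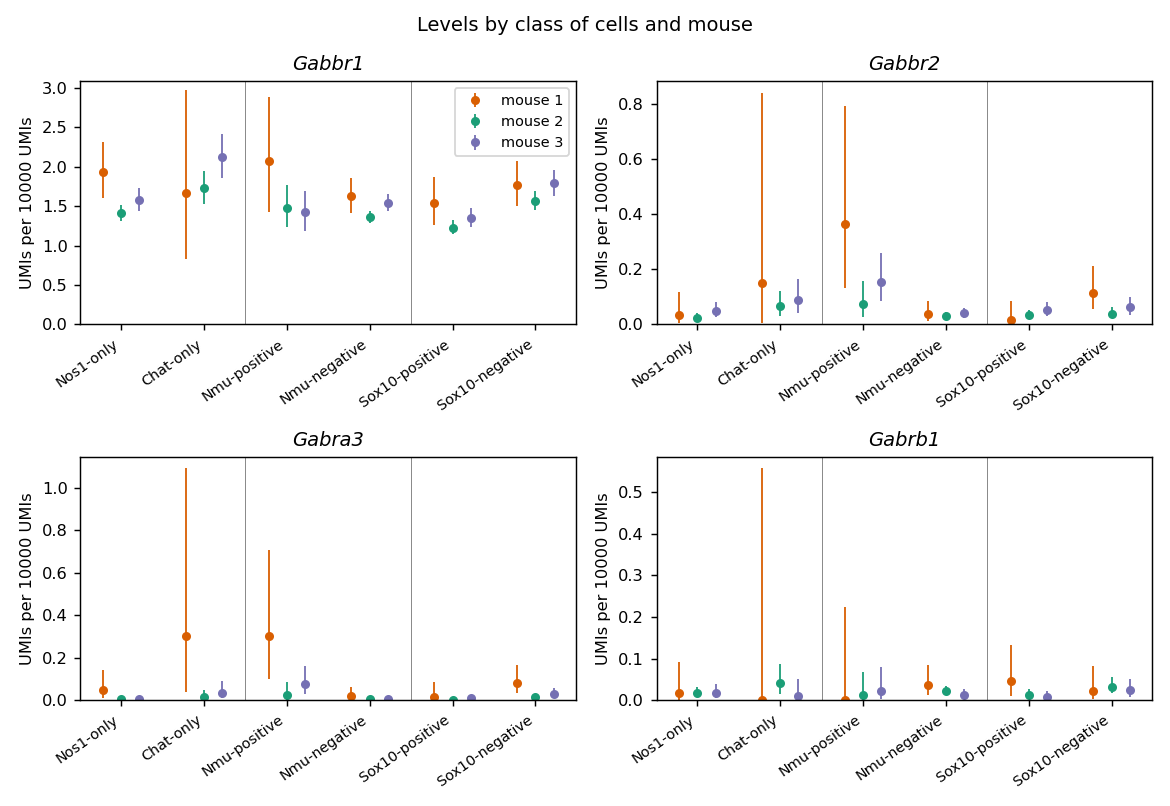
Levels of *Gabbr1*, *Gabbr2*, *Gabra3* and *Gabrb1* in UMIs per 10000 UMIs in 6 classes of cells, 1 point per mouse with 95% exact Poisson intervals, which cover counting error only. In all 3 mice the points of *Gabbr2* and *Gabra3* were higher in *Nmu*-positive than in *Nmu*-negative cells.

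*Gabbr2* and *Gabra3* were higher in *Nmu*-positive than in *Nmu*-negative cells of each mouse, for *Gabra3* on few UMIs. The level of *Gabbr2* there was 0.365, 0.0728 and 0.155 UMIs per 10000 in mice 1, 2 and 3, against 0.0367, 0.0325 and 0.0399 in *Nmu*-negative cells. Every *Nmu*-positive value lay above every *Nmu*-negative value. *Gabra3* was at 0.304, 0.0243 and 0.0773 against 0.0220, 0.00524 and 0.00726, higher within each mouse, and the lowest *Nmu*-positive value (mouse 2) was just above the highest *Nmu*-negative one (mouse 1). *Nmu*-positive cells were 9.71% of all cells and held 20 of the 73 *Gabbr2*-positive cells (27.4%) and 10 of the 21 *Gabra3*-positive cells (47.6%). *Gabra3* had 14 UMIs in *Nmu*-positive and 12 in *Nmu*-negative cells, so it reached the minimum of 20 for the fit only with those of the former. With every cell thinned to 3000 UMIs and *Nmu* read again, *Gabbr2* was at 0.435, 0.0980 and 0.233 UMIs per 10000 against 0.0264, 0.0416 and 0.0411, still higher in each mouse, on 7 UMIs in *Nmu*-positive cells. *Gabra3* then had 2, 0 and 0 UMIs in *Nmu*-positive cells against 4, 2 and 1 in *Nmu*-negative cells, so at this depth it was higher in mouse 1 alone.

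In the limma fit with the mouse as a block, neither difference passed the threshold over all genes. The log2 fold change was 2.17 ± 0.52 (SE) for *Gabbr2* (adjusted p = 0.366 by limma with Benjamini-Hochberg adjustment) and 3.15 ± 0.61 for *Gabra3* (limma, adjusted p = 0.166), both higher in 3 of 3 mice. Of the 13702 genes tested, 37 were called (0.27%), and none of the 4 tested receptor genes was among them. All 37 were higher in *Nmu*-positive cells, a split that became 164 higher and 151 lower without mouse 2. *Gabbr1* did not move with them, at 2.07, 1.48 and 1.42 against 1.62, 1.36 and 1.54 UMIs per 10000 (log2 fold change 0.13, 95% interval -0.30 to 0.55). *Gabrb1* was at 0, 0.0121 and 0.0221 against 0.0367, 0.0220 and 0.0127, with a fold change of 0.10 that turned negative under 3 other settings and was 1.09 with a pseudocount of 2 UMIs. The median log2 fold change was 0.03 for the 19 tested genes among the other 37 of the pathway, beside 0.00425 for all genes. Of these 19, limma called 0 and 0 had an unadjusted p under 0.05, as had 7.3% of all genes.

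The calls for both genes depended on the fit. With voom weights, which let small sums count less, *Gabbr2* rose by 1.98 (limma, adjusted p = 0.0307) and *Gabra3* by 3.19 (limma, adjusted p = 0.00475), where 1.1% of all genes were called. With a pseudocount of 2 UMIs *Gabra3* was called (limma, adjusted p = 0.0187, 0.759% of genes called), although that pseudocount moved the median of all genes to 0.27. In this fit and the one with voom weights *Gabra3* reached the minimum of 20 UMIs only with those of the *Nmu*-positive cells, so these calls add no support. Without mouse 2 *Gabbr2* was called at 2.63 (limma, adjusted p = 0.0217, 2.51% called). That fit had 1 residual degree of freedom, so its p rested almost wholly on variance shared over all genes. With the minimum of 20 UMIs for a gene dropped, *Gabbr2*, *Gabra3* and *Gabrg1* were called, but so were 17.8% of all genes, and *Gabrg1* rested on 3 UMIs with 0 in mouse 2. Over all alternatives the adjusted p of limma ran from 0.0019 to 0.904 for *Gabbr2* and from 0.00378 to 0.904 for *Gabra3*, the latter with too few UMIs for a fit without 1 mouse.

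The pattern was sharpest in cells with more *Nmu*. Of the 200 *Nmu*-positive cells, 70 held 2 UMIs or more of *Nmu* (25, 15 and 30 per mouse, at 9.98, 10.3 and 9.29 *Nmu* UMIs per 10000) and 130 held 1. *Gabbr2* was read in 6 of 25, 4 of 15 and 7 of 30 of the cells with 2 or more, which is 24%, 26.7% and 23.3%, at 0.460, 0.304 and 0.364 UMIs per 10000. In the cells with 1 UMI of *Nmu* it was read in 0 of 6, 1 of 65 and 2 of 59, or 2.31% of the 130, and in the *Nmu*-negative cells in 2.85%. *Gabra3* was read in 2 of 25, 2 of 15 and 3 of 30 (8%, 13.3% and 10%), against 0.619%, 0.515% and 0.705% of the *Nmu*-negative cells. In the cells with 1 UMI of *Nmu* it was read in 2 of 6, 0 of 65 and 1 of 59, so for *Gabra3* mouse 1 did not follow the split by *Nmu* UMIs. In cells with 2 or more UMIs the shares of both genes were above the *Nmu*-negative cells in each mouse, for *Gabra3* on 2 or 3 positive cells per mouse. The median depth of these cells was 4681, 12049 and 10086 UMIs, and shares depend on depth. A fit of these cells against the *Nmu*-negative ones, with the cells at 1 UMI left out, gave log2 fold changes of 3.39 ± 0.55 (SE) for *Gabbr2* (limma, adjusted p = 0.0019) and 4.15 ± 0.73 for *Gabra3* (limma, adjusted p = 0.00378), in which 4.09% of 13589 genes were called, 376 higher and 180 lower. *Gabra3* had 22 UMIs in that fit. It reached the minimum of the fit only with those of the cells with 2 or more UMIs of *Nmu*. Requiring 2 UMIs was an alternative to the 1 UMI of the design.

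Other markers moved with *Nmu* as well. *Kit*, taken here as a marker of interstitial cells of Cajal, was at 1.40, 0.170 and 0.519 UMIs per 10000 in *Nmu*-positive cells against 0.0734, 0.0210 and 0.0781 in *Nmu*-negative cells, and was read in 12 of 25, 6 of 15 and 9 of 30 cells with 2 or more UMIs of *Nmu*. The other marker of interstitial cells of Cajal, *Ano1*, was read in 3 of those 70 cells (4.29%), none of them from mouse 3, and in 1.08% of *Nmu*-negative cells. The neuronal markers were at 81.3, 54.5 and 46.2 UMIs per 10000 in the cells with 2 or more UMIs of *Nmu*, above the level of all cells in each mouse. In *Nmu*-positive against *Nmu*-negative cells the smooth muscle markers were at 32.0, 22.2 and 18.5 against 82.4, 16.8 and 10.8 UMIs per 10000, and the glial markers at 4.50, 11.3 and 10.1 against 16.6, 12.8 and 11.3. Endothelial markers were low in both, at 0.122, 0.0970 and 0.0994 against 0.0588, 0.0430 and 0.0472, and higher in *Nmu*-positive cells of each mouse. The median depth was 5119 against 3657 UMIs in mouse 1, 10417 against 9568 in mouse 2 and 9770 against 9528 in mouse 3. The part of these markers in the *Gabbr2* and *Gabra3* levels was not tested. Without the smooth muscle-marked cells the log2 fold changes were 2.14 for *Gabbr2* and 3.16 for *Gabra3*, and without the *Sox10*-positive cells they were 2.33 and 2.94.

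Between *Nos1*-only and *Chat*-only cells, *Gabbr2* was lower in the former in each mouse. Its level was 0.0330, 0.0253 and 0.0479 UMIs per 10000 in *Nos1*-only cells and 0.151, 0.0671 and 0.0900 in *Chat*-only cells, and the 2 groups did not overlap. The *Chat*-only value of mouse 1 was 1 UMI in 16 cells. The log2 fold change was -1.60 ± 0.51 (SE), which missed the threshold (limma, adjusted p = 0.261), in a fit that called 54 of 12899 genes (0.419%). With voom weights it fell by 1.30 on the log2 scale (limma, adjusted p = 0.0381), in a fit that called 12.2% of genes. With *Nos1* and *Chat* required at 2 UMIs it was -0.62 over 2 mice, and over all alternatives the adjusted p of limma ran from 0.0381 to 0.614.

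*Gabbr1* was at 1.93, 1.41 and 1.58 UMIs per 10000 in *Nos1*-only cells and 1.66, 1.72 and 2.12 in *Chat*-only cells, so mouse 1 went one way and mice 2 and 3 the other. Its log2 fold change was -0.19 (95% interval -0.61 to 0.23, limma, adjusted p = 0.631). Without mouse 1, which had 16 *Chat*-only cells, it fell by 0.36 on the log2 scale (limma, adjusted p = 0.0174), but 21.4% of all genes were then called, and the adjusted p of limma reached 0.966 in other alternatives. In each mouse *Gabbr1* was lowest in cells with neither marker, at 1.45, 1.08 and 0.995 UMIs per 10000. These cells also had lower neuronal markers, at 35.8, 34.2 and 30.2 UMIs per 10000 against 51.2, 43.1 and 41.4 in *Nos1*-only cells. Their glial markers were at 17.4, 13.7 and 15.04 and their smooth muscle markers at 114, 16.8 and 10.2, and the part of these markers in the *Gabbr1* level was not tested. Ordered by the mean over mice, its level was 1.17 ± 0.243 in these cells, 1.64 ± 0.265 in *Nos1*-only, 1.84 ± 0.250 in *Chat*-only and 2.08 ± 0.849 in cells with both (SD, n = 3 mice). These SDs are between mice and do not use the pairing of classes within a mouse, so they settle no order among the last 3. Cells with both numbered 4 in mouse 1. *Gabrb1* was at 0.0165, 0.0163 and 0.0171 in *Nos1*-only cells and 0, 0.0403 and 0.00900 in *Chat*-only cells.

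All 12 *Gabrb2*-positive cells held *Nos1*, and 11 of them held no *Chat*, while 51.7% of all cells were *Nos1*-positive. Of these cells 10 were from mouse 2, so the count rested mainly on 1 library, and with 13 UMIs *Gabrb2* was below the minimum of the fit. None was *Nmu*-positive and 6 were *Sox10*-positive. *Gabra3* was read in 5 *Nos1*-only, 5 *Chat*-only and 10 cells with neither marker and in 1 with both, and it did not reach 20 UMIs in these classes. *Gabrb1*-positive cells were spread much like all cells, with 17 of 32 holding *Nos1*. The median log2 fold change was 0.02 for the 19 tested of the other pathway genes, beside -0.16 for all genes. Of these 19, limma called 0 and 5 had an unadjusted p under 0.05, as had 14.4% of all genes. The GIRK subunit *Kcnj5* was the farthest of these from 0, at 3.76 ± 1.01 (SE, limma, adjusted p = 0.198), and was singled out after its value was seen. Smooth muscle markers were at 34.2, 21.0 and 13.4 UMIs per 10000 in *Nos1*-only cells and 20.7, 7.39 and 8.69 in *Chat*-only cells, glial markers at 12.9, 13.3 and 11.0 against 11.5, 8.29 and 5.54, and their part in these differences was not tested.

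**Figure D4:**
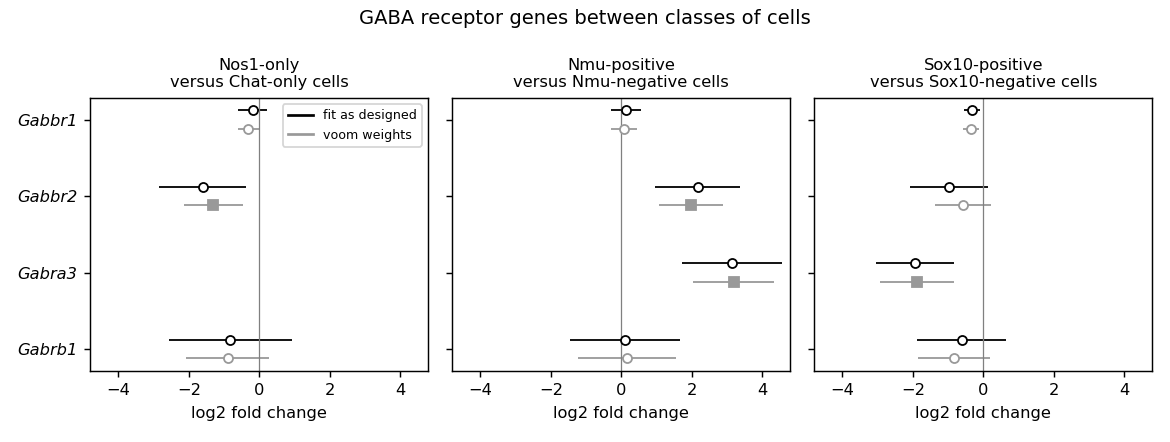
Log2 fold change of 4 receptor genes in 3 comparisons with 95% intervals, in the fit as designed (black) and with voom weights (grey). Filled squares passed an adjusted p of 0.05, which no gene did in the fit as designed, and *Gabra3* was not tested between *Nos1*-only and *Chat*-only cells. In the other comparisons *Gabra3* reached the minimum of UMIs only with those of the class where it was higher.

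The levels of *Gabbr1*, *Gabra3* and *Gabbr2* were lower in the *Sox10*-positive than in the *Sox10*-negative cells of each mouse, and none of these genes passed the threshold in the fit as designed. *Gabbr1* was at 1.54, 1.23 and 1.35 UMIs per 10000 against 1.77, 1.57 and 1.79 in *Sox10*-negative cells, lower in each mouse and with no overlap between the groups. The log2 fold change was -0.32 ± 0.10 (SE, limma, adjusted p = 0.126). Without mouse 1 it was called at -0.38 (limma, adjusted p = 0.00226), in a fit that called 22.5% of all genes, while its adjusted p was up to 0.677 in other alternatives. *Gabra3* was at 0.0152, 0.00165 and 0.0104 against 0.0804, 0.0140 and 0.0273, lower in each mouse, with mouse 1 of the first group above mouse 2 of the second. Its log2 fold change was -1.95 ± 0.49 (SE, limma, adjusted p = 0.0602), while 4.9% of 13702 genes were called. It passed with voom weights at -1.88 (limma, adjusted p = 0.0216, 11.7% called) and with a pseudocount of 2 UMIs at -1.42 (limma, adjusted p = 0.0429, 6.56% called), and the adjusted p over all alternatives ran from 0.0216 to 0.726. Of the 21 *Gabra3*-positive cells, 5 were *Sox10*-positive, as were 52.8% of all cells. Of its 26 UMIs 20 were in *Sox10*-negative cells, without which it would not have reached the minimum of the fit. Of the *Gabbr1*-positive and *Gabbr2*-positive cells, 51.7% and 50.7% were *Sox10*-positive, near the share of all cells. The median depth was 3709, 10721 and 10073 UMIs in *Sox10*-positive cells against 3758, 8732 and 8561 in *Sox10*-negative cells.

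*Gabbr2* in *Sox10*-positive cells was at 0.0152, 0.0330 and 0.0520 against 0.115, 0.0396 and 0.0623 UMIs per 10000 (log2 fold change -0.98, 95% interval -2.09 to 0.13, and -0.27 without mouse 1). With cells thinned to 3000 UMIs mouse 3 turned, at 0.0687 against 0.0480 UMIs per 10000, mouse 2 was at 0.0429 against 0.0439, and the log2 fold change was -0.62. *Gabrb1* was at 0.0457, 0.0132 and 0.00780 against 0.0230, 0.0326 and 0.0234, with a log2 fold change of -0.62, of -1.37 without mouse 1 and of -0.19 without mouse 3. *Gabrb2*, below the minimum of the fit, was read in 6 *Sox10*-positive cells of its 12. The median log2 fold change was -0.26 for the 19 tested of the other 37 pathway genes, beside -0.04 for all genes. Of these 19, limma called 0, and 3 had an unadjusted p under 0.05, as had 20.1% of all genes. The neuronal markers were at 34.2, 35.7 and 33.5 UMIs per 10000 in *Sox10*-positive cells and 49.8, 48.0 and 45.5 in *Sox10*-negative cells, also lower in each mouse. The glial markers, a list that includes *Sox10*, were at 25.5, 17.9 and 16.1 against 7.54, 5.21 and 3.75, and the smooth muscle markers at 48.9, 16.4 and 13.8 against 98.2, 18.6 and 9.05. The part of these markers in the receptor levels was not tested.

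*Gabbr1* alone had enough UMIs, 2649, for a search of genes with a like pattern. Over 14 sums of classes that share no cell, centred within each mouse, the highest Pearson correlations among 5849 genes were those of *Plekha1* (0.969), *Celf5* (0.960) and *Map6* (0.951), the last a microtubule-associated protein of neurons. The sums share libraries, and the values are a description over these 14 points.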

How the data were processed

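The authors made the deposited table from 1 library per mouse (10x Genomics). Per the labels and methods, reads were counted with Cell Ranger on mm10 (version not given in the sources used here), cells were filtered and merged in Seurat, and genes held to be confounding and cells other than neurons were removed. Each deposited value is the natural log of 1 plus the gene's UMIs per 10000 in that cell, and all 2060 cells of the table were used, which is also the number of neurons of the study. Whole UMIs were recovered by taking the smallest value above 0 in each cell as 1 UMI, and 100% of 6435281 values came out whole within 1e-06. The 6 genes and all lists were chosen with earlier results of these data known.

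The fit was planned for sorted cells of all kinds and was run on these neurons. UMIs were summed per class and mouse, for classes of at least 10 cells in both arms, and genes with at least 20 UMIs were tested on log2 CPM of these UMIs (pseudocount 0.5 UMI) with limma 3.58.1 in R 4.3.3 (trend, two-sided, Benjamini-Hochberg over all genes tested, called at an adjusted p under 0.05). Fold changes are on that scale, and those of low genes depend on the pseudocount, which lifts the smaller of 2 sums more. The mouse was a block because both classes came from the same animal, and the genes that define a class were left out of its fit. The mice are separate animals, and cells were not treated as replicates. The named genes were the 6 members, the pathway genes of 10 lists read in at least 5% of cells of 2 mice or called, with counts for others, and the 3 genes most like a member. Some genes of the planned lists are not reported here. Shares have 95% exact binomial and levels exact Poisson intervals, and a count of 0 allows up to 3 counts. Thinning drew 3000 UMIs per cell and left out 178 shallower cells (78, 55 and 45 per mouse). For doublets, Scrublet (scanpy 1.11.5) was run on 1 mouse at a time with 6% expected. It marked so few cells that it says little, and marked cells were kept except in an alternative. The scripts were tested on simulated data with known changes. The changed genes all had more UMIs than the receptor genes other than *Gabbr1*, so this test did not cover those. Alternatives were other scalings, filters, pseudocounts and weights, no block, thinning, class genes at 2 UMIs, and leaving out doublets, cells marked for smooth muscle, *Sox10*-positive cells or 1 mouse. Each fit without 1 mouse left 1 residual degree of freedom, against 2 in the fit as designed. Its p therefore leaned more on variance shared over all genes. Gene positions are from GENCODE M21 on GRCm38, and promoters (6 of 6 genes matched) from RefSeq. Beside the neuronal, glial, smooth muscle and *Kit* and *Ano1* markers, the lists gave, in UMIs per 10000 over all cells, 1.76 for fibroblasts, 0.132 for immune cells, 0.0514 for endothelium and 0.0104 for epithelium.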

Additional observations from a re-analysis of the deposited data

How the results depend on the processing

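Of 146 values of a receptor gene's change under another setting, 129 kept their direction and side of the threshold, 14 passed it and 3 turned. The 3 were *Gabrb1* in *Nmu*-positive cells, whose log2 fold change of 0.10 became -0.00745 with the mean of the deposited ln values, -0.13 without cells marked for smooth muscle and -0.36 to 0.36 with 1 mouse left out, the former without mouse 3. Some settings could not turn a direction, because dropping the block or moving the minimum of UMIs leaves the fold change as it was. Settings in which a gene fell below the minimum of UMIs gave no value and are not among the 146. For *Gabra3* in *Nmu*-positive cells these included the fits without 1 mouse and the thinned cells, where it was higher in mouse 1 alone. A minimum of 20 cells repeated the fit as designed for *Nmu* and *Sox10*. Between *Nos1*-only and *Chat*-only cells it repeated the fit without mouse 1, so the call of *Gabbr1* was counted under both. The counts of genes called depended on the setting (limma, adjusted p under 0.05 throughout). Between *Nos1*-only and *Chat*-only cells, 54 became 1568 with voom weights, 121 with at least 1 UMI, 477 with a pseudocount of 2 UMIs, 101 when thinned, 2166 with class genes at 2 UMIs (which also left out mouse 1), 27 without cells marked for smooth muscle, 2712 with at least 20 cells (which left out mouse 1), and 154 to 2712 with 1 mouse left out: 2712 without mouse 1, 154 without mouse 2 and 202 without mouse 3. Median ratio scaling moved the split of higher and lower calls there from 21 and 33 to 38 and 24, and the median of all genes from -0.16 to -0.02. A pseudocount of 2 UMIs moved that median to -0.44, and for *Nmu* from 0.00425 to 0.27. For *Nmu*, 37 became 151 with voom weights, 0 with the mean of the deposited ln values (980 at an unadjusted p under 0.05), 3598 with at least 1 UMI, 104 with a pseudocount of 2 UMIs, 141 when thinned, 556 with *Nmu* at 2 UMIs, 106 without *Sox10*-positive cells, and 47 to 315 with 1 mouse left out: 138 without mouse 1 and 315 without mouse 2. For *Sox10*, 672 became 1602 with voom weights, 401 when thinned, 398 without cells marked for smooth muscle, and 454 to 2991 with 1 mouse left out, the latter without mouse 1. The causes of these moves were not tested.

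The pairing of classes by mouse came from the design. Without the replicate block limma called 11 genes between *Nos1*-only and *Chat*-only cells, 0 for *Nmu* (570 at an unadjusted p under 0.05) and 0 for *Sox10* (1090), and no receptor gene. Shares moved by more than the spread between mice in 8 of 48 cases, all from thinning or a minimum of 2 UMIs, and co-detection ratios in 7 of 45, on at most 8 cells each. *Gabrb2* and *Gabrg1* were too sparse for any test at the minimum of 20 UMIs.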
